A study of Mus musculus with 6 samples.

Results

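The miR-322, miR-503 and miR-450 cluster is a group of microRNAs (miRNAs) transcribed together from the X chromosome of the mouse, and 6 of its mature forms are described here in kidney at 2 ages. The members were taken by name, as the array features named mmu-miR-322-5p, mmu-miR-322-3p, mmu-miR-503-5p, mmu-miR-450a-5p, mmu-miR-542-3p and mmu-miR-351-5p (the mouse prefix mmu is left out hereafter), and all 6 were found among the 1247 mouse miRNAs of the array. Of these, 3 gave enough signal to be tested, as did 193 (15.5%) of the 1247. Kidney RNA came from male C57BL/6 mice, a standard inbred strain, aged 2 months (young, 3 arrays) or 20 months (aged, 3 arrays), and the labels name no treatment or altered allele. The series text speaks of independent RNA preparations and the labels tie none of them to an animal, so a p-value here reflects how much preparations varied, in part perhaps for technical reasons. Each preparation was labelled with Cy3 and read on its own 1-colour array.

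A miRNA is cut from a hairpin, whose left arm gives the -5p form and whose right arm the -3p form, and it recognises target mRNAs mainly through its seed, bases 2 to 8. miR-322 is the mouse counterpart of human miR-424. With miR-503 it belongs to the extended miR-15 and miR-16 family, known to repress cyclins and other mRNAs of the cell cycle and to accompany cell cycle exit and differentiation. In kidney, as in other organs, cell division is more frequent during growth than in old age.

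The mature sequences show which members share a seed. They are given 5′ to 3′ from RefSeq on GRCm38.p6 with the seed in capitals, for the 6 members, matched by name, and for 3 miRNAs used in the comparisons.
miR-322-5p: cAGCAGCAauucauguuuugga
miR-503-5p: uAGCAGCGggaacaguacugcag
miR-16-5p: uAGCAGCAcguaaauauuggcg
miR-15b-5p: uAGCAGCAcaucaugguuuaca
miR-351-5p: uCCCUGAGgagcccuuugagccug
miR-125b-5p: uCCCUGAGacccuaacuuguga
miR-450a-5p: uUUUGCGAuguguuccuaauau
miR-542-3p: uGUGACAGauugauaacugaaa
miR-322-3p: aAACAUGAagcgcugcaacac

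miR-322-5p has the whole seed of miR-16-5p, while miR-503-5p shares it over bases 2 to 7. Outside the seed they diverge: miR-322-5p and miR-503-5p matched at 11 of 22 positions set side by side from the 5′ end, and each of them matched miR-16-5p at 12 of 22. miR-351-5p carries the seed of the miR-125 family and matched miR-125b-5p at 10 of 22 positions. miR-450a-5p, miR-542-3p and miR-322-3p have seeds unrelated to these. miR-450a-5p is encoded by 2 hairpins with the same mature sequence, so its probes cannot tell them apart, and its neighbour miR-450b-5p matched it at 15 of 22 positions.

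The members lie close together on the minus strand. On GRCm38.p6 the cluster's mature sequences fall within chrX:53048008-53054327, a span of 6320 bases with 7 hairpins. The array files give no coordinates and name mm9 as the build of the array design. In the direction of transcription miR-322-5p (chrX:53054306-53054327) comes before the others. The 5′ end of miR-503-5p (chrX:53054027-53054049) lies 278 bases further on, that of miR-351-5p (chrX:53053315-53053338) 989 bases and that of miR-542-3p (chrX:53049415-53049436) 4891 bases. The nearer copy of miR-450a-5p (chrX:53048339-53048360) lies 5967 bases from miR-322-5p and the other copy is at chrX:53048206-53048227.

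All 6 arrays were on 1 slide, with 0 saturated spots. The young arrays and aged array 1 were in slide row 1, and aged arrays 2 and 3 in row 2. The scaling value of an array, its 75th percentile over 315 probes detected throughout, ran from 1171 to 2054 intensity units, with aged array 2 the brightest. All 9 kidney-enriched miRNAs listed as tissue markers (miR-192-5p and miR-204-5p among them) were detected on every array, and their summed signal overlapped between ages (4.61 to 4.81 young, 4.62 to 4.81 aged, log2). Summed signals of 4 other marker lists did not overlap between ages: 2 red cell miRNAs stood at 3.05 to 3.22 in young and 2.66 to 2.83 in aged kidney, 5 leukocyte miRNAs at -0.76 to -0.55 and -0.41 to -0.08, 4 stromal miRNAs at 0.97 to 1.03 and 1.17 to 1.32, and 3 brain miRNAs at -3.47 to -3.45 and -3.06 to -2.97. Of the brain list miR-124-3p was higher in aged kidney, and was well above background on 0 young and 3 aged arrays. It entered the test through the aged arrays alone. On every young array it lay at the floor, a lower limit of -5.22 (log2) set in processing. Its difference and its limma adjusted p of 8.63e-05 therefore depend on that limit. Both miR-9 arms were not well above background on any array. Within the stromal list miR-143-3p was lower in aged kidney without overlap (-0.27), while miR-199a-5p (0.34), miR-199a-3p (0.40) and miR-214-3p (0.30) had differences in the other direction. The smooth muscle marker miR-145a-5p, left out of the sum by its array name, was also lower without overlap (-0.25). Of all tested miRNAs, 20.2% were lower in aged kidney without overlap. The sums of 7 muscle miRNAs overlapped, at -2.39 to -2.29 and -2.39 to -2.37. An undetected miRNA enters a sum at no less than the floor. The muscle sums are therefore mostly floor, and their overlap says little about age. The young brain sums likewise contain miR-124-3p at the floor. The liver marker miR-122-5p and 6 of 7 muscle markers were not well above background on any array. The part of these shifts in the results below was not tested, and in whole kidney fewer cells of a type and less of a miRNA per cell cannot be told apart.

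The summed signals of miR-503-5p and miR-450a-5p fell with age past the threshold, but both were well above background on all 3 young arrays and on 1 of 3 aged arrays. They entered the test through the young arrays alone, so the filter favoured a lower aged value, and with detection required on all 6 arrays neither was tested. miR-322-5p was lower on every aged array without passing the threshold, and the other 3 members were not well above background on any array. The levels below are log2 of the scaled signal, summed over the probes of a miRNA, where 0 equals the 75th percentile of the array's detected probes. They were compared with limma over the 193 tested miRNAs, and called at an adjusted p (Benjamini-Hochberg) under 0.05.

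miR-322-5p, known as a repressor of cell cycle mRNAs, was the member with signal far above background. Its level was -0.53, -0.66 and -0.40 on young arrays 1 to 3 and -0.92, -0.79 and -0.83 on aged arrays 1 to 3. All aged arrays lay below all young arrays, and aged array 1 was the lowest. The mean was -0.53 ± 0.13 in young and -0.84 ± 0.07 in aged kidney (SD, n = 3 each). The difference of -0.31 ± 0.09 (log2, SE, 1.24-fold lower) had a 95% interval of -0.53 to -0.09 and missed the threshold (limma adjusted p = 0.0864, unadjusted p = 0.0134).

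miR-503-5p, its close neighbour in the cluster and by seed a relative, had levels of -4.47, -4.56 and -4.35 in young and -4.97, -4.88 and -4.83 in aged kidney. The groups did not overlap, with means of -4.46 ± 0.10 and -4.89 ± 0.07 (SD, n = 3 each). Its summed signal fell by 0.43 ± 0.09 (log2, SE, limma adjusted p = 0.032). The size is uncertain, as no probe of it was well above background on aged arrays 1 and 3.

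miR-450a-5p, from the far end of the cluster, had levels of -4.21, -4.14 and -4.10 in young and -4.85, -4.52 and -4.86 in aged kidney. Young arrays lay close together, and aged array 2 stood between them and aged arrays 1 and 3. The means were -4.15 ± 0.06 and -4.75 ± 0.19 (SD, n = 3 each). Its summed signal fell by 0.59 ± 0.11 (log2, SE, limma adjusted p = 0.0258), and here too no probe was well above background on aged arrays 1 and 3.

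**Figure D1:**
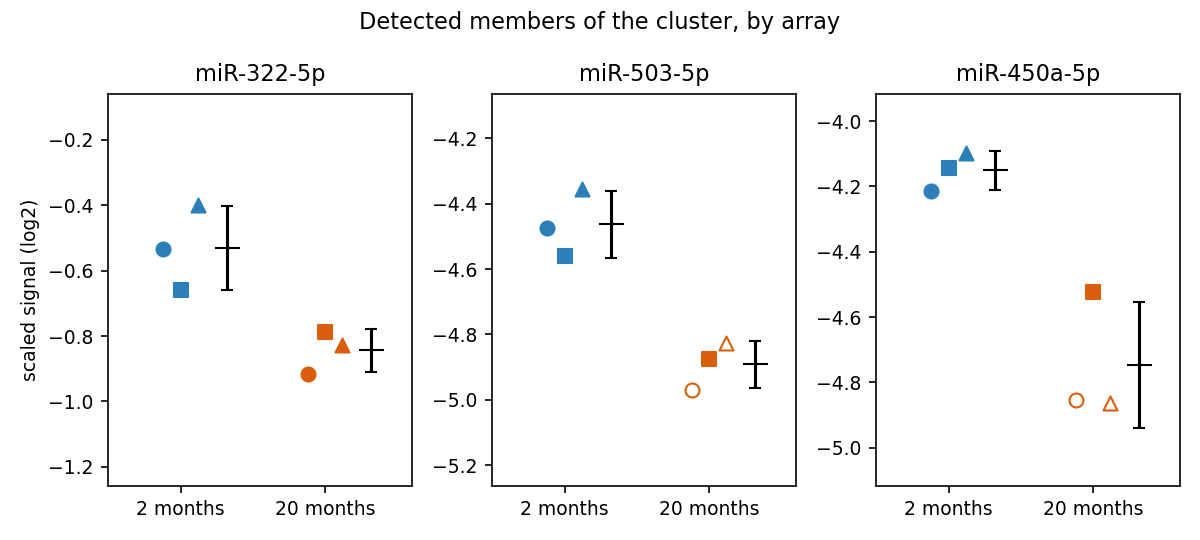
Scaled signal (log2) of the 3 detected members in young (2 months, blue) and aged (20 months, orange) kidney; circle, square and triangle are arrays 1, 2 and 3, open symbols mark arrays where no probe of the miRNA was well above background, and bars are mean ± SD (n = 3). All aged values lie below all young ones, and the vertical axes span the same range of log2 units around different centres.

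Thus 2 of the 3 tested members passed the threshold as lower in aged kidney, where 3.63% of all tested miRNAs did. Since those 2 entered the test through the group where they are high, the counts and the median in this paragraph are given as a description and support nothing about the cluster as a whole. All 3 had groups that did not overlap with the aged values lower, as had 20.2% of the tested miRNAs, and all 3 had an unadjusted p under 0.05 in that direction, as had 15.5%. The median difference was -0.43 over the 3 members and -0.08 over all 193, of which 66.3% had a difference below 0. Counted from the lowest difference, miR-450a-5p ranked 19, miR-503-5p 27 and miR-322-5p 46 of 193.

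**Figure D2:**
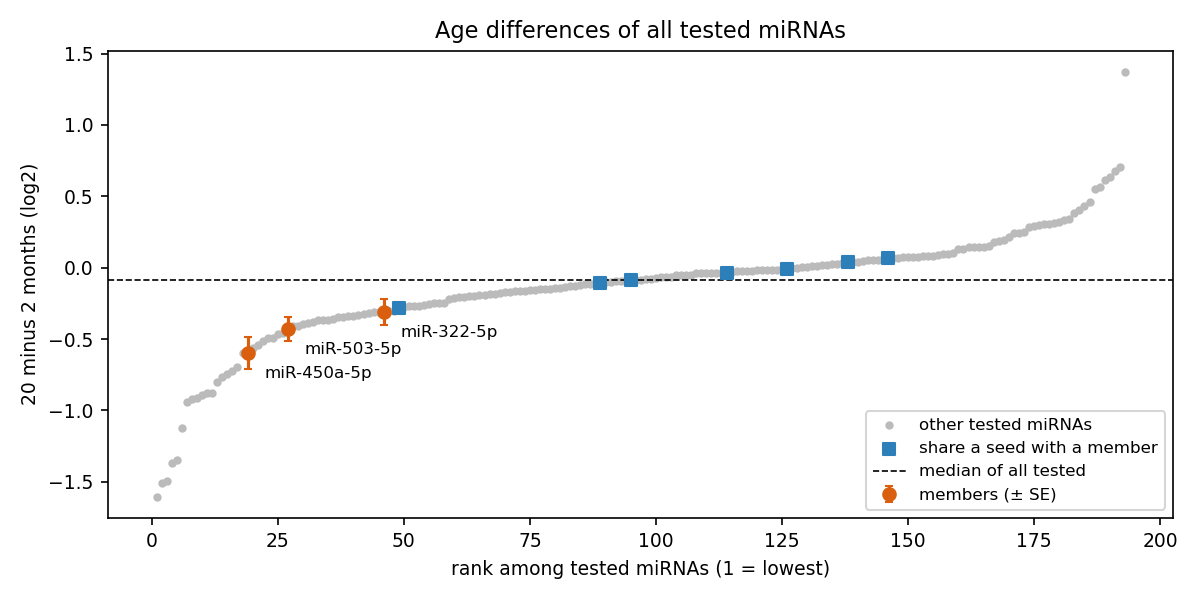
Difference between ages (20 minus 2 months, log2) of the 193 tested miRNAs in order of size; orange points are the 3 detected members with the limma SE, and blue squares the tested miRNAs that share a seed with a member. The members stand at ranks 19, 27 and 46, below the dashed median of -0.08, and 1 seed relative, miR-15b-5p, lies beside miR-322-5p.

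The signal of the 2 members that fell lay near the detection limit. The scanner software marks single spots as well above background, and a probe was taken as such when the mark was on more than 50% of its kept (non-outlier) spots. For miR-450a-5p the brighter of 2 probes averaged 47.8 ± 1.0, 42.1 ± 1.7 and 42.2 ± 1.5 intensity units (SE over 17 to 20 spots) on the young arrays. It averaged 26.2 ± 1.7, 57.1 ± 1.6 and 28.1 ± 1.5 on the aged ones. The mark was carried by 17 of 17, 13 of 20 and 16 of 18 spots in the young group, and by 6 of 20, 19 of 19 and 0 of 19 in aged kidney. Before scaling, aged array 2 was therefore the highest of all 6 arrays for this probe.

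The brighter probe of miR-503-5p showed the same order. Its spots averaged 46.4 ± 1.6, 37.2 ± 1.4 and 41.7 ± 1.8 intensity units in the young group, and 27.1 ± 1.4, 51.8 ± 1.5 and 33.3 ± 1.3 in the aged group (SE over 15 to 20 spots). Spots with the mark numbered 18 of 20, 10 of 19 and 14 of 18 in young kidney and 6 of 20, 15 of 15 and 3 of 15 in aged kidney. Both miRNAs were thus well above background on 3 young arrays and on 1 aged array, array 2. Arrays also differed in how many miRNAs were well above background: 209, 193 and 200 on young arrays 1 to 3, and 201, 206 and 177 on aged arrays 1 to 3. The part of this in the detection of the 2 members was not tested. Of the 190 miRNAs well above background on all young arrays, 4.74% were so on 1 aged array. The scanner software's own call per miRNA, which rests on other criteria, gave both as detected on all 6 arrays.

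The dimmer probe of each was not well above background on any array and is included in the sum. For miR-450a-5p it read 26.0 to 28.4 intensity units in the young group and 14.3, 32.2 and 16.0 in the aged group. For miR-503-5p it read 13.7 to 17.2 in the young group and 10.2, 18.1 and 11.9 in the aged group. With the brighter probe alone the difference was -0.36 for miR-450a-5p (limma adjusted p = 0.0288) and -0.29 for miR-503-5p (limma adjusted p = 0.0629). Those values are limited by the floor of -5.22, at which the bright probe lay on 2 aged arrays for miR-450a-5p and on all 3 for miR-503-5p, while the summed values of the 3 members were at the floor on 0 arrays.

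miR-322-5p was bright throughout. Its kept spots averaged 488, 386 and 451 intensity units in young and 309, 599 and 359 in aged kidney, and all 231 kept spots on the 6 arrays carried the mark. Its 2 probes went the same way, at -0.30 and -0.32 (log2, aged minus young), each with all aged arrays below all young arrays.

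**Figure D3:**
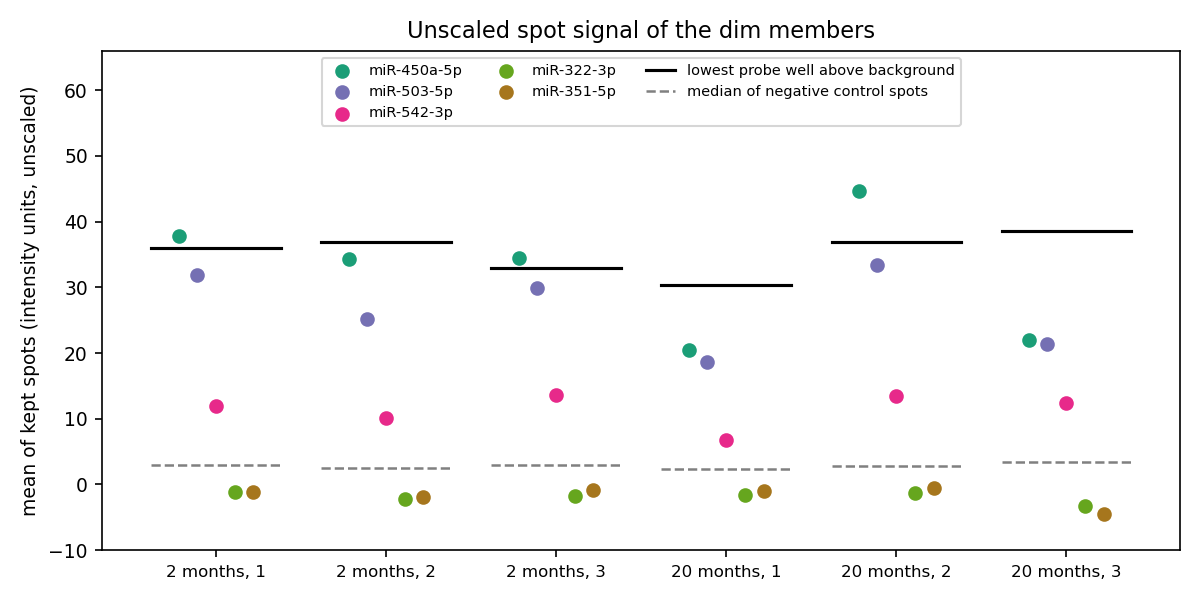
Mean unscaled intensity of the kept spots of 5 members, averaged over all their probes, on each array; black lines give the lowest probe well above background on that array and dashed lines the median of its negative control spots. miR-450a-5p and miR-503-5p lie around or below the black lines and highest on aged array 2, miR-542-3p lies between the 2 lines, and miR-322-3p and miR-351-5p lie under the negative controls; miR-322-5p, at 309 to 599 units, is off the scale.

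The remaining members were not well above background on any of the 6 arrays, and their age difference cannot be measured here. miR-322-3p, the opposite arm of miR-322-5p, had means of -3.22 to -1.22 intensity units, below the mean of the negative controls (taken without their highest spot) on 6 of 6 arrays. miR-351-5p, which has the miR-125 seed, had means of -4.45 to -0.53, also below the negative controls on 6 of 6 arrays. No kept spot of either carried the mark (0 of 229 each).

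miR-542-3p, known to repress the mRNA of the apoptosis inhibitor survivin, gave weak signal. Its kept spots averaged 11.9, 10.1 and 13.6 intensity units in young and 6.74, 13.5 and 12.4 in aged kidney. This was above the mean of the negative controls (taken without their highest spot) on 6 of 6 arrays. With that spot kept, miR-542-3p lay below the control mean on aged array 1 (6.74 against 6.85). On each array it lay under the lowest probe called well above background, which read 30.3 to 38.6 units, and 1 of 228 kept spots carried the mark. As a share of the array's 75th percentile its summed signal was 1.68%, 1.68% and 2.29% in young and 1.13%, 1.33% and 1.93% in aged kidney. The groups overlapped, and no fold is given for a signal that was not called well above background.

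The 7 other arms from the hairpins of the cluster were likewise not well above background on any array. They are miR-503-3p, miR-351-3p, miR-542-5p, miR-450a-1-3p, miR-450a-2-3p, miR-450b-5p and miR-450b-3p. Their means per array lay between -6.27 and 7.68 intensity units, and values this close to background have no order. Of the 13 mature forms of the cluster on the array, 3 were therefore detected, each a -5p arm.

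The miRNAs that share a seed with the members did not pass the threshold. Of 9 others on the array with bases 2 to 7 of miR-322-5p and miR-503-5p, 5 were tested, and 0 passed the threshold by limma (1 had an unadjusted p under 0.05). miR-16-5p stood at 0.04 ± 0.08, miR-15a-5p at 0.07 ± 0.08, miR-195a-5p at -0.03 ± 0.07 and miR-497-5p at -0.09 ± 0.07 (log2 difference ± SE), and the groups overlapped for these except miR-497-5p. miR-15b-5p stood at -0.28 ± 0.08 (limma adjusted p = 0.0814), with 0.11, 0.07 and 0.26 in young and -0.13, -0.16 and -0.12 in aged kidney, which did not overlap. For the miR-351-5p seed, miR-125a-5p stood at -0.11 ± 0.10 and miR-125b-5p at -0.01 ± 0.09, and their groups overlapped. miR-1907, named beforehand as a relative, was not among the seed matches found for any member and is outside these counts. It was not well above background on any array.

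Since the difference between 2 miRNAs on the same array does not depend on the scaling, members were set against these seed relatives array by array, a comparison added after the data were seen. The value of miR-322-5p less that of miR-16-5p was -2.51, -2.52 and -2.41 in young and -2.82, -2.80 and -2.88 in aged kidney. That of miR-503-5p less miR-16-5p was -6.45, -6.43 and -6.36 in young and -6.87, -6.89 and -6.88 in aged kidney. The groups did not overlap for either, and the changes with age were -0.35 and -0.47. Set against miR-16-5p in the same way, 30.2% of the other 192 tested miRNAs were lower in aged kidney without overlap, so this is a common outcome.

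Over the 5 relatives, the change of miR-503-5p ran from -0.50 (against miR-15a-5p) to -0.15 (against miR-15b-5p), without overlap in 5 of 5. That of miR-322-5p ran from -0.38 to -0.03, without overlap in 4 of 5. The share of the other 192 tested miRNAs that were lower without overlap was 30.2% against miR-15a-5p, 21.9% against miR-195a-5p, 14.1% against miR-497-5p and 3.12% against miR-15b-5p. The exception for miR-322-5p was miR-15b-5p, where the young values of -0.65, -0.72 and -0.66 overlapped the aged values of -0.79, -0.63 and -0.71. With 3 arrays against 3 the exact two-sided permutation test cannot go below p = 0.10. The exact permutation p was that value for 9 of the 10 pairs (0.111 adjusted over the 10) and 0.70 for miR-322-5p against miR-15b-5p. The 10 pairs reuse the values of the same members and are not separate evidence. Since miR-503-5p entered the test through the young arrays alone, the filter favoured its lower aged values here too, and its counts without overlap are a description.

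The 3 detected members were also set against each other array by array, where the exact test could not fall below 0.05 for any pair. Since miR-503-5p and miR-450a-5p entered through the young arrays alone, the filter bears on these pairs as well. The value of miR-322-5p less that of miR-450a-5p was 3.68, 3.48 and 3.70 in young and 3.94, 3.74 and 4.03 in aged kidney, without overlap. The value of miR-322-5p less that of miR-503-5p averaged 3.93 ± 0.03 in young and 4.05 ± 0.05 in aged kidney (SD, n = 3 each), also without overlap. For miR-503-5p less miR-450a-5p the groups overlapped, at -0.31 ± 0.09 and -0.15 ± 0.20. The exact two-sided permutation p was 0.10, 0.10 and 0.30 in that order, 0.15, 0.15 and 0.30 adjusted over the 3 pairs, where 0.10 is the smallest value this design allows. With the brighter probe alone the changes were 0.038, -0.023 and 0.061 in place of 0.28, 0.12 and 0.17, since the dim members were held at the floor.

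**Figure D4:**
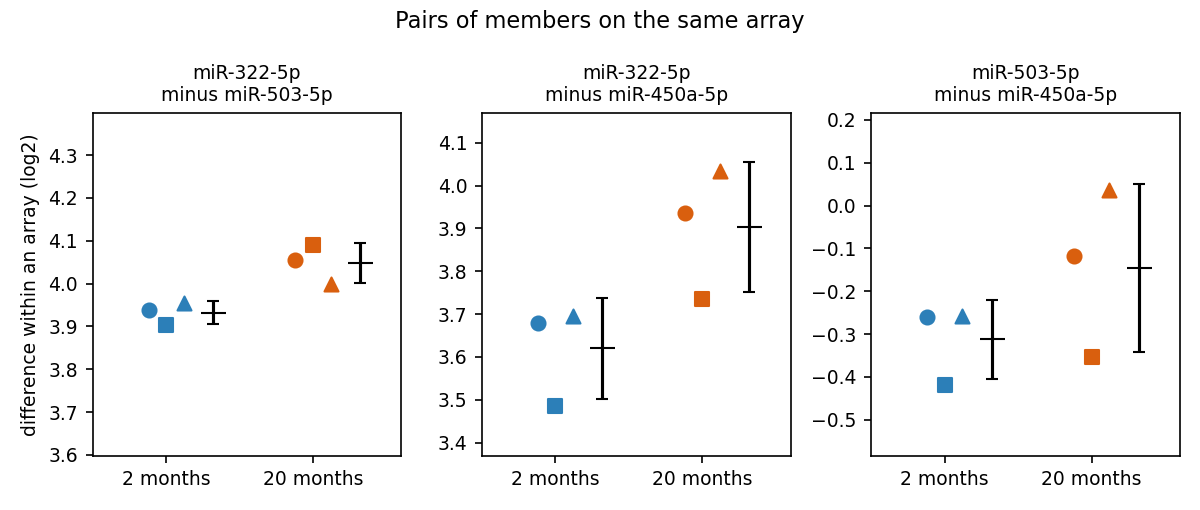
Difference between 2 members on the same array (log2) in young (2 months, blue) and aged (20 months, orange) kidney; circle, square and triangle are arrays 1, 2 and 3 and bars are mean ± SD (n = 3). The 2 pairs with miR-322-5p do not overlap between ages, with changes of 0.12 and 0.28, and the pair of miR-503-5p and miR-450a-5p overlaps.

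The profile of the 3 members over the 6 arrays was most like that of miR-181c-5p, with a root mean square difference of 0.05 (log2, each miRNA centred on its own mean). miR-218-5p (0.07), miR-141-3p (0.07), miR-148a-3p (0.10) and miR-19a-3p (0.10) came next among the non-members. Taken singly, miR-322-5p was closest to miR-15b-5p (0.05), and miR-503-5p was its rank 3 of 192 (0.07). Both miR-503-5p and miR-450a-5p were closest to miR-181c-5p (0.06 and 0.11). miR-450a-5p was further from its cluster mates: miR-503-5p was rank 4 (0.15) and miR-322-5p rank 7 (0.18) in its order of likeness. In the opposite direction miR-450a-5p was rank 80 of 192 in the order of miR-322-5p and rank 32 in that of miR-503-5p. This is a description over 6 arrays that share slide and scaling.

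The size and the calls moved with the scaling and with single arrays. Scaling by the 75th percentile of every probe, detected or not, shifted the median of all tested miRNAs up by 0.41. There the difference was 0.10 for miR-322-5p, -0.016 for miR-503-5p and -0.18 for miR-450a-5p. Scaling to the median of detected probes gave -0.17, -0.29 and -0.46, quantile normalization -0.21, -0.15 and -0.31, and no scaling -0.11, -0.23 and -0.39, where no member passed. Relative to the median of all tested miRNAs the 3 stood at -0.23, -0.34 and -0.51, which is the same under any scaling by a constant per array. In the authors' processed values the differences were -0.20, -0.29 and -0.91, and normexp background correction gave -0.28, -0.19 and -0.26, again with no member past the threshold. Other processing also moved the differences relative to the median of all tested miRNAs. They were -0.17, -0.085 and -0.16 with normexp, -0.21, -0.15 and -0.31 with quantile normalization, and -0.23, -0.32 and -0.94 in the authors' values.

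**Figure D5:**
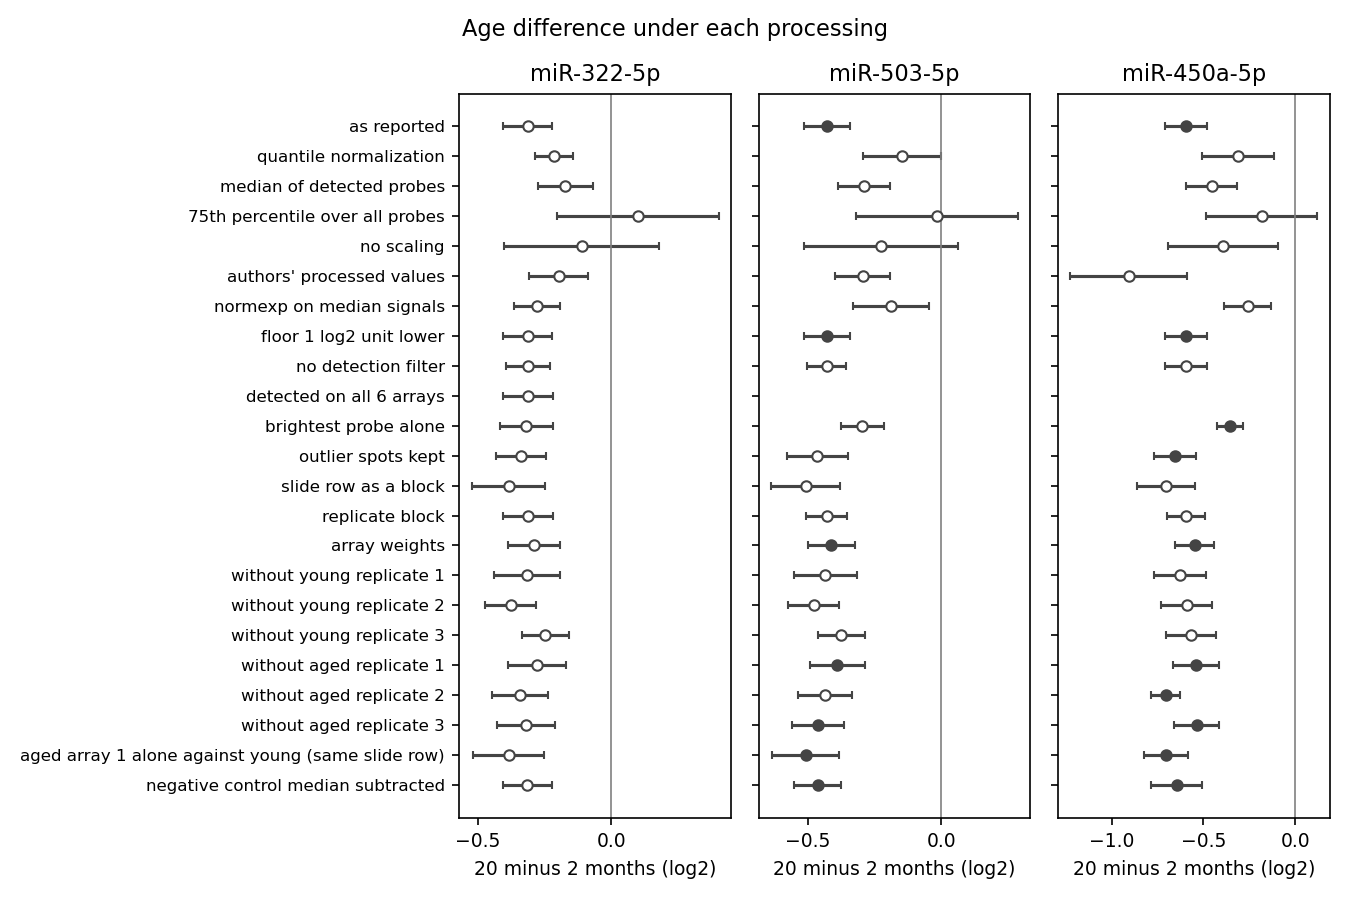
Difference between ages (20 minus 2 months, log2, ± SE) of the 3 detected members under each processing; filled points passed the threshold of 0.05 after adjustment by limma. miR-503-5p and miR-450a-5p stay below 0 throughout, and miR-322-5p is above 0 with the 75th percentile over all probes.

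Within slide row 1, aged array 1 alone against the 3 young arrays gave -0.38 for miR-322-5p, -0.51 for miR-503-5p and -0.70 for miR-450a-5p. The aged group is then 1 array, on which no probe of miR-503-5p or miR-450a-5p was well above background, so only the sizes are given. With slide row as a block the differences were the same and the limma adjusted p was 0.229, 0.105 and 0.068. The other row held aged arrays alone. The call of miR-503-5p was lost without young array 1 (-0.43, limma adjusted p = 0.185), young array 2 (-0.48, 0.0731), young array 3 (-0.37, 0.0955) or aged array 2 (-0.44, 0.0686). That of miR-450a-5p was lost without young array 1 (-0.63, limma adjusted p = 0.105), young array 2 (-0.59, 0.0984) or young array 3 (-0.57, 0.0962), and without aged array 2 it was -0.71 (0.0106).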

How the data were processed

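Spot intensity values were deposited as written by Feature Extraction 11.5.1.1 (array design 046065, build mm9), per the file headers, with background removed by the software and no scaling between arrays. Flags for spots well above background, outlier and saturated spots come from the same deposited files. The authors also deposited log2 values; per array, these differed from the logged total gene signal of the software by a single constant, within 1e-05 over 1268 features. How the authors set that constant is not stated in the labels or headers, and the column medians ran from -10.10 to -9.20.

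Processed intensity was averaged over the kept spots of each of 3105 probes, scaled by the 75th percentile of 315 probes on its array, summed per miRNA, set to at least -5.22 (log2; the median over arrays of the lowest detected probe) and logged. A miRNA entered the test if, at either age, all 3 arrays detected a probe of it. Tested miRNAs were fitted with limma 3.58.1 in R 4.3.3 (jsonlite 2.0.0; figures with matplotlib 3.10.9), Benjamini-Hochberg adjusted over 193. Arrays of an age differed by more than spot noise for 58.4% to 81.0% of the 315 probes. The fit was tested on simulated data, and other scalings, background corrections, filters, blocks and left-out arrays were tried. The number of arrays limits the precision. The text names all members, the cluster's other arms, seed relatives and the 5 nearest profiles. The members, lists and this rule were chosen with earlier results of these data known. Older array names were kept (miR-497-5p for miR-497a-5p). Normexp used median spot signals with an offset of 50, since the files hold no mean signal.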

Additional observations from a re-analysis of the deposited data

How the results depend on the processing

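miR-503-5p and miR-450a-5p kept a negative difference under all 21 alternatives run for each, and miR-322-5p under 21 of 22, with 0.10 under the 75th percentile over all probes. The alternatives reuse the same 6 arrays and are not separate evidence. In most of them miR-503-5p and miR-450a-5p again entered through the young arrays alone, which favours that sign. The limma calls were less stable: 6 of 21 alternatives kept that of miR-503-5p and 9 of 21 that of miR-450a-5p. Both counts include the fit of aged array 1 alone against the young arrays, which has no aged replicate. Both calls were lost with quantile normalization (-0.15 and -0.31), the median of detected probes (-0.29 and -0.46), the 75th percentile over all probes (-0.016 and -0.18), no scaling (-0.23 and -0.39), the authors' values (-0.29 and -0.91), normexp (-0.19 and -0.26), no detection filter (-0.43 and -0.59, with 1247 miRNAs in the fit) and slide row as a block (-0.51 and -0.70). Members past the threshold then numbered 0. With the brightest probe alone (-0.29 for miR-503-5p) or outlier spots kept (-0.46) it was 1. Requiring detection on all 6 arrays removed both from the test (0 past the threshold). A filter at over 25% of spots put miR-503-5p and miR-450a-5p well above background on 5 arrays each, and one at over 75% on 3 each. Within an array, the brightest probe alone moved the change of miR-322-5p less miR-503-5p to -0.023 and of miR-322-5p less miR-450a-5p to 0.038. Leaving out 1 array gave -0.48 to -0.37 for miR-503-5p, -0.71 to -0.54 for miR-450a-5p, -0.38 to -0.25 for miR-322-5p and 0 to 2 members past the threshold. Subtracting the median negative control, added after the data were seen, gave -0.46, -0.65 and -0.31 and kept both calls. Apart from this, the cause of these shifts was not tested.

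Over all tested miRNAs, 8 higher and 7 lower became 13 and 1 with quantile normalization, 18 and 3 with the median of detected probes, 1 and 1 without scaling, 4 and 0 with normexp (27 at an unadjusted p under 0.05 by limma), 4 and 2 without a filter, 2 and 3 with the slide row block, and 10 and 0 in the authors' values (39 at an unadjusted p under 0.05 by limma). Leaving out 1 array gave 3 to 12 higher and 2 to 27 lower. With a replicate block the differences stayed -0.43 for miR-503-5p and -0.59 for miR-450a-5p (limma adjusted p = 0.0789 for both), with 2 miRNAs higher, 1 lower and 0 members past the threshold. No pairing of arrays by number was seen. Same-numbered arrays had correlations of deviations of 0.12, -0.58 and 0.31, and 1 of 6 arrays correlated best with its own number. Deviations from the mean of so few arrays depend on each other, so this check cannot exclude a pairing. Signal over background limits miR-503-5p and miR-450a-5p, and no age difference of miR-322-3p, miR-351-5p or miR-542-3p could be measured.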
